A study of Mus musculus with 24 samples.

Results

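The genes described here encode the nuclear-encoded parts of the mitochondrial respiratory chain and ATP synthase in mouse CD4 T cells. They were the rows of the count files whose symbol begins with Ndufa, Ndufb, Ndufc, Ndufs or Ndufv and a digit, with Uqcr, with Atp5 or with Cox and a digit of 4 to 8, together with Sdha, Sdhb, Sdhc, Sdhd and Cycs, with pseudogene symbols left out. This gave 85 genes of 23420 in the files: 37 named for complex I, 4 for complex II, 8 for complex III, 18 for complex IV, 17 for complex V, and cytochrome c. RNA was sequenced in 24 libraries, 6 for each of 4 cell states, from cells of 1 genotype cultured and sorted in vitro. In every group the C57BL/6 cells bore OT-II, a transgenic receptor for an ovalbumin peptide, together with the Nur77-GFP reporter, in which regulatory sequence of Nr4a1 drives a green fluorescent protein. The states were reactivated TH1 cells, which are TH1 cells exposed again to macrophages carrying antigen for 6 hours; TH1 effector cells, differentiated from spleen naive cells for 5 days; activated naive cells, stimulated for 6 hours with a stimulus that the labels do not name; and naive cells. TH1 cells placed with macrophages lacking antigen are not among the groups, so macrophage contact and antigen recognition cannot be told apart. Whether the libraries of a state stem from separate animals or cultures is not given, and p-values therefore reflect variation among libraries, which may be technical.

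Complexes I and II pass electrons from NADH and succinate to coenzyme Q, complex III passes them on to cytochrome c, and complex IV hands them to oxygen. Complexes I, III and IV pump protons across the inner mitochondrial membrane as they do so, and complex V, ATP synthase, uses the returning protons to make ATP. T cells are known to build up mitochondria when they leave rest, and the chain also serves them by regenerating NAD+ and by supplying reactive oxygen as a signal. The subunits of complexes I, III, IV and V that are encoded in mitochondrial DNA have no row in the count files. They were not analysed here, and neither were protein levels. Cyc1 and Ndufab1 have symbols outside the rule.

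Depth ran between 18457653 and 34262645 counts given to genes per library. The 7 of 7 matched CD4 T cell markers reached at least 1 CPM (counts scaled to a common library size, with TMM factors) in every state. The summed level of 6 TH1 markers was 9985 to 20248 CPM in reactivated TH1 libraries, 1301 to 1899 CPM in TH1 effector libraries, 120 to 138 CPM in activated naive libraries and 250 to 347 CPM in naive libraries. The 14 macrophage markers summed to 12.3 to 18.1 CPM in reactivated TH1 libraries and 3.69 to 5.38 CPM in TH1 effector libraries. Of these, Lyz2 had 4.58 to 7.23 CPM in reactivated TH1 and 0 to 0.137 CPM in TH1 effector libraries, and C1qb, C1qc, Csf1r and Emr1 averaged 0.686 to 1.5 CPM in reactivated TH1 libraries and were at 0 in all TH1 effector libraries, while Marco was at 0 in every library. Cd14 averaged 0.358 CPM in reactivated TH1 and 0.416 CPM in TH1 effector libraries. Between these 2 states, 4 of the 8 tested markers were higher on reactivation, 1 was lower and 3 were not called. Over all genes tested, 39.9% were higher and 39.8% lower. The 14 markers summed to 10 to 12 CPM in activated naive libraries and 7.54 to 11.4 CPM in naive libraries. The part of macrophage RNA in the results was not tested. In bulk RNA, fewer cells of a kind and less RNA per cell cannot be told apart, and CPM are shares of the library rather than amounts per cell.

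Of the 85 genes, 78 had enough counts to be tested, in a fit of 12584 genes. Respiratory chain genes were mostly higher in both activated naive and TH1 effector cells than in naive cells. At an adjusted p under 0.05, 81.9% of all genes tested differed in one direction or the other between activated naive and naive cells. In that comparison 58 of the 78 rose, where 41.3% of all genes tested did, and 15 fell, where 40.5% of all genes did. The median log2 fold change of the 78 was 0.45, beside 0.00 over all genes tested. These counts depended on scaling: with library size alone, without TMM, 45 rose and 18 fell. That scaling moves the median of all genes to -0.14. In TH1 effector against naive cells, where 84.9% of all genes differed, 67 rose, beside 44.6% of all genes, and 7 fell, beside 40.3%, with a median log2 fold change of 0.65 beside 0.06 over all genes. The naive libraries serve as the comparison group in both. Most changes were moderate: 10 genes rose by 2-fold or more in activated naive cells, where 21.2% of all genes did, and 17 did in TH1 effector cells, where 25.2% of all genes did. The lowest mean lay in naive cells for 55 of the 78 genes. The highest lay in reactivated TH1 cells for 27, in TH1 effector cells for 33, in activated naive cells for 14 and in naive cells for 4, namely Sdha, Cox7a2l, Atp5s and Atp5sl.

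The second stimulation looked different. In reactivated TH1 against TH1 effector cells, where 79.7% of all genes differed, 26 rose, beside 39.9% of all genes, and 28 fell, beside 39.8%, while 24 did not pass the threshold; the median log2 fold change was -0.02, beside -0.00 over all genes. The split depended on scaling: with library size alone, which moves the median of all genes to -0.12 it was 17 higher and 41 lower, and with DESeq2 18 higher and 32 lower. Compared with activated naive cells, reactivated TH1 cells had 52 genes higher, beside 43.4% of all genes, and 13 lower, beside 36.4%, while 79.8% of all genes differed. Within the first sequencing run alone, the higher and lower counts were 58 and 13 for activated naive against naive, 68 and 4 for TH1 effector against naive, and 20 and 26 for reactivated TH1 against TH1 effector. Within the second run alone they were 53 and 10, 58 and 5, and 19 and 17 in the same order of comparisons. The 78 tested genes exclude members that were near 0 everywhere, so these counts do not cover all 85.

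**Figure D1:**
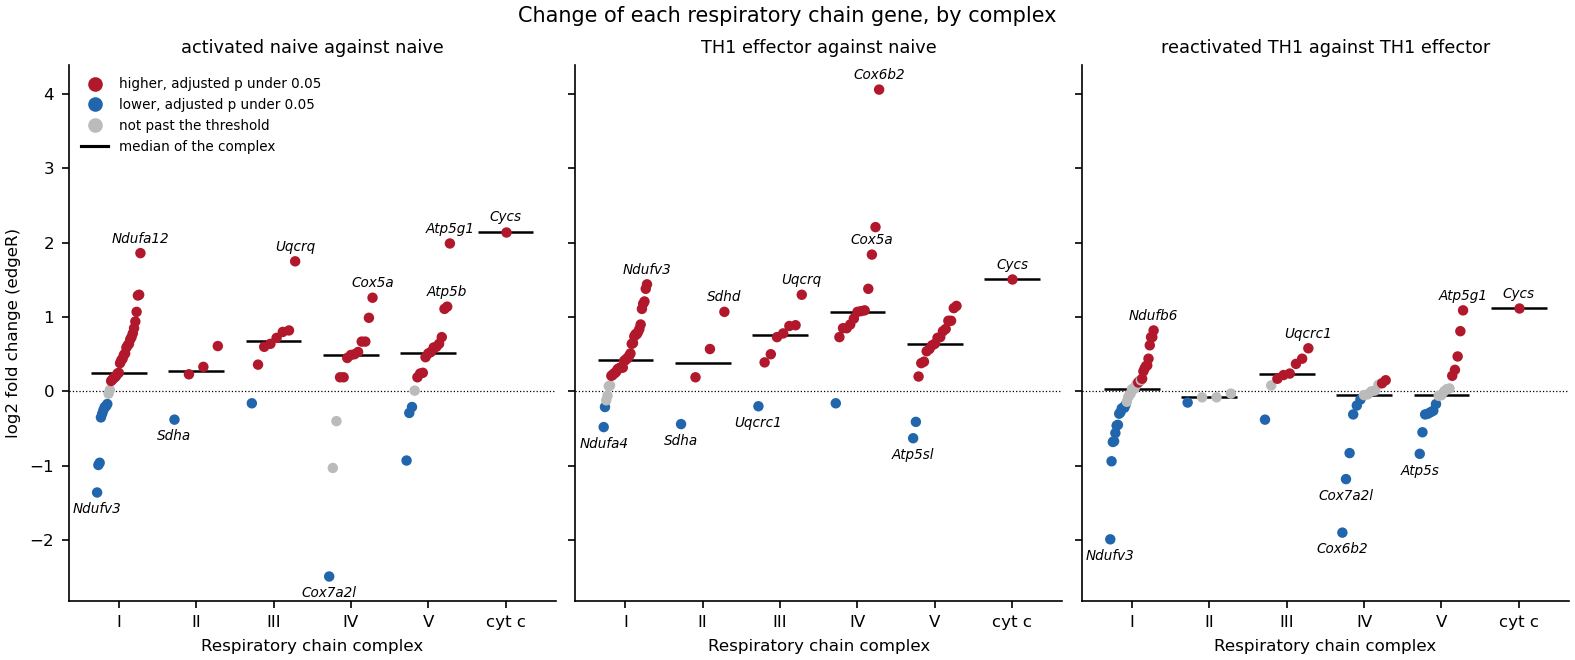
Change of each tested respiratory chain gene in 3 comparisons, by complex. Each point is 1 gene, its log2 fold change on the vertical axis; red and blue points are higher and lower at an adjusted p under 0.05, grey ones did not pass, and black bars are medians. In activated naive cells 58 genes lie above 0 in red, Cox7a2l lies lowest at -2.49 and Cycs highest at 2.15.

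As a share of all counts given to genes, the 85 genes together took 0.857% ± 0.0371 in reactivated TH1 libraries, 0.891% ± 0.0495 in TH1 effector libraries, 0.732% ± 0.0167 in activated naive libraries and 0.602% ± 0.0214 in naive libraries (SD, n = 6 each). The ranges of activated naive and naive libraries did not overlap. These shares are of raw counts, without the TMM factors that scale CPM and fold changes. The factors were 0.9239 to 0.9893 in reactivated TH1 and 0.9269 to 0.9834 in activated naive libraries. They were 1.031 to 1.047 in TH1 effector and 1.044 to 1.072 in naive libraries. Small differences in share between states may therefore change direction with TMM. Complex V took the most, 0.395% ± 0.0162 in reactivated TH1, 0.371% ± 0.0191 in TH1 effector, 0.336% ± 0.00795 in activated naive and 0.233% ± 0.0070 in naive libraries. Complex II took between 0.0412% and 0.0531% in every library. Complex IV genes took 0.0936% ± 0.0028 in activated naive and 0.0983% ± 0.00468 in naive libraries on this scale. In the fit with TMM, 10 of the 13 tested complex IV genes rose there and Cox7a2l alone fell. Cox7a2l averaged 49.8 CPM in activated naive and 279 CPM in naive libraries. How far Cox7a2l and the scaling each account for the lower share was not tested.

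**Figure D2:**
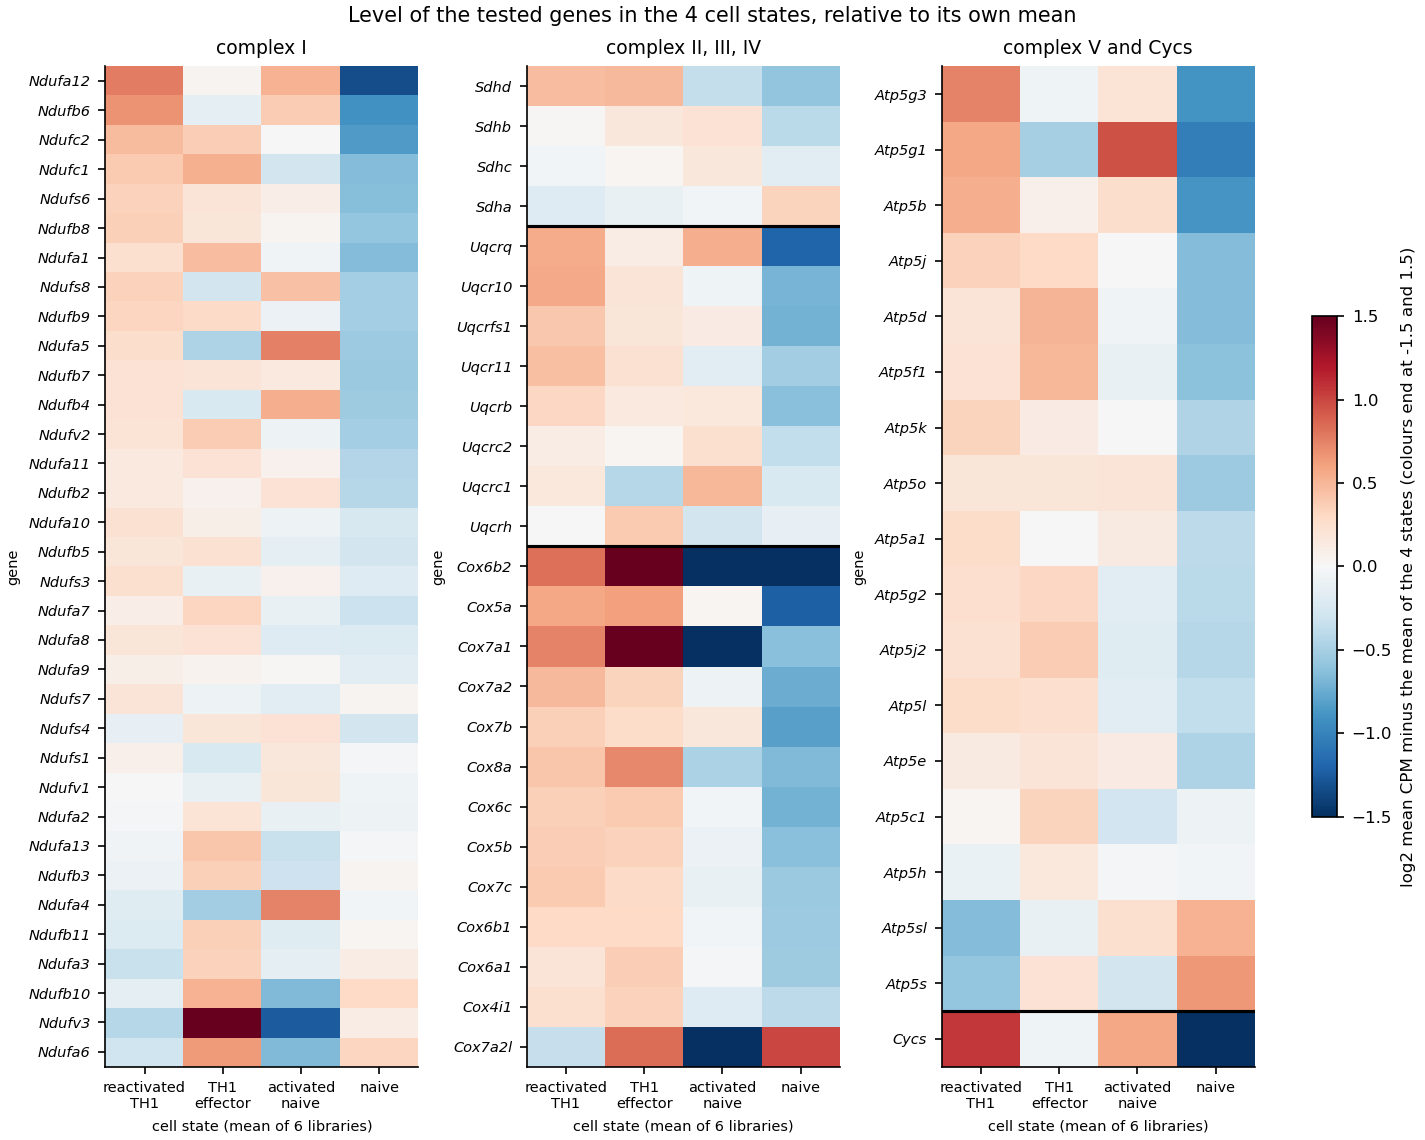
Mean level of the tested genes, 1 left out, in the 4 cell states, as the log2 of the mean CPM of 6 libraries minus the mean of the 4 states, with genes in rows grouped by complex. Most rows are lowest in the naive column, as for 55 of the 78 tested genes, while Cox7a2l, Sdha, Atp5s and Atp5sl are highest there.

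Complex I oxidises NADH and is the largest member of the chain. Of its 35 tested genes, 24 rose and 9 fell in activated naive against naive cells, and 29 rose and 2 fell in TH1 effector against naive cells. In shares, 68.6% rose and 25.7% fell in activated naive cells, beside 41.3% and 40.5% of all genes. In reactivated TH1 against TH1 effector cells 12 rose and 13 fell, 34.3% and 37.1%, near the 39.9% and 39.8% of all genes. In reactivated TH1 against activated naive cells 21 were higher and 6 lower, 60% and 17.1%, beside 43.4% and 36.4% of all genes. The 7 core genes encode the subunits that carry the flavin and iron-sulfur clusters or line the quinone site. Of these, 5 rose and 2 fell in activated naive cells, 3 rose and 1 fell in TH1 effector cells against naive cells, and 5 rose and 2 fell on reactivation. The 42.9% that rose and 14.3% that fell in TH1 effector cells stand beside 44.6% and 40.3% of all genes. Ndufs3, a core gene counted as higher in activated naive cells and on reactivation, shares 84.1% of its transcript with other genes. Its counts are uncertain to that extent. Among the core genes Ndufs8, named after its values were seen, an iron-sulfur subunit, had 61.5 to 72.9 CPM (median 68.6) in activated naive libraries against 27.7 to 39.5 CPM (median 36.2) in naive libraries. The ranges were apart, and the log2 fold change was 0.94 ± 0.08 (SE; adjusted p = 4.55e-12). Ndufs8 also had 59.2 to 69.8 CPM in reactivated TH1 against 37.3 to 43.4 CPM in TH1 effector libraries (log2 0.62 ± 0.03, adjusted p = 1.94e-08). Ndufs1, the largest iron-sulfur subunit, was lower in TH1 effector cells, with 78.5 to 87.5 CPM against 88.9 to 102.2 CPM in naive cells (log2 -0.21 ± 0.04, adjusted p = 0.000318). This call was lost in the second run alone (log2 -0.18, adjusted p = 0.0646). Ndufs7, which lines the quinone site, fell in activated naive cells (log2 -0.20 ± 0.08, adjusted p = 0.00826) and rose in reactivated TH1 cells (log2 0.27 ± 0.03, adjusted p = 0.000588), in both cases with overlapping ranges.

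The accessory genes of complex I, which encode subunits without a redox centre, moved in opposite directions to each other. Ndufa12, an accessory subunit of the arm that faces the matrix, had 54.2 to 65.8 CPM (median 58.7) in activated naive libraries and 13.2 to 19.8 CPM (median 16.4) in naive libraries. Every activated naive library lay above every naive one, and the log2 fold change was 1.86 ± 0.05 (adjusted p = 2.24e-19). In reactivated TH1 libraries Ndufa12 reached 62.4 to 75.6 CPM against 39.2 to 45.5 CPM in TH1 effector libraries (log2 0.73 ± 0.05, adjusted p = 4.9e-11). Ndufa5 had 40.1 to 48.6 CPM in activated naive and 16.8 to 20.1 CPM in naive libraries (log2 1.30 ± 0.05, adjusted p = 8.54e-16), and Ndufb6, of the membrane arm, rose with a log2 fold change of 1.29 ± 0.05 there and 0.82 ± 0.06 in reactivated TH1 against TH1 effector cells. Ndufc2 and Ndufc1, also of the membrane arm, were among the genes with the largest rise in TH1 effector against naive cells after Ndufv3 and Ndufa12, with log2 fold changes of 1.21 ± 0.04 and 1.18 ± 0.06. Ndufa12 shares 36.2% of its transcript with other genes, the closest a processed pseudogene, and its counts are uncertain to that extent. The same holds for Ndufb6, which shares 39%. Its closest match, Smim27 on the other strand, overlaps 257 bases of the Ndufb6 exons.

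Ndufv3 had the largest change of complex I on reactivation. It encodes a small accessory subunit of the NADH-binding module, at chr17:31520115-31531331 on the plus strand of GRCm38. Ndufv3 had 15.7 to 22.5 CPM (median 20) in activated naive libraries against 44.7 to 57.7 CPM (median 50.4) in naive libraries (log2 -1.36 ± 0.10, adjusted p = 1.75e-12). In TH1 effector libraries it had 109.1 to 166.3 CPM (median 137.5), above every naive library (log2 1.44 ± 0.08, adjusted p = 4.13e-13). In reactivated TH1 libraries it had 27.4 to 40.9 CPM (median 34.9), below every TH1 effector library (log2 -1.99 ± 0.11, adjusted p = 1.26e-15). Ndufv3 thus was high in TH1 effector cells and low after either stimulation, with no overlap in these 3 comparisons.

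Ndufa6, an accessory subunit of the matrix arm, and Ndufb10, of the membrane arm, also fell after either stimulation. Ndufa6 had 25.1 to 32 CPM in activated naive and 51.9 to 61 CPM in naive libraries (log2 -0.99 ± 0.07, adjusted p = 1.11e-13), and 34.1 to 38.8 CPM in reactivated TH1 against 64.5 to 82.5 CPM in TH1 effector libraries (log2 -0.94 ± 0.05, adjusted p = 4.1e-13). Ndufb10 had 25.2 to 29.9 CPM in activated naive and 50 to 59.9 CPM in naive libraries (log2 -0.96 ± 0.06, adjusted p = 2.32e-14). On reactivation Ndufb10 fell by 0.67 ± 0.03 on the log2 scale. Smaller falls after either stimulation were found for Ndufa3, Ndufa13, Ndufb3 and Ndufb11, with log2 fold changes of -0.35 to -0.21 in activated naive cells and -0.68 to -0.45 in reactivated TH1 cells. Over all 78 genes, 13 of the 15 that fell in activated naive cells also fell in reactivated TH1 cells, in comparisons that share no library; the others were Sdha, which did not pass there, and Ndufs7, which rose. Over all genes tested, 66.2% of those that fell in activated naive cells also fell in reactivated TH1 cells. Of the 58 that rose in activated naive cells, 25 rose, 11 fell and 22 did not pass in reactivated TH1 cells, where over all genes tested 68.7% rose again, 14.7% fell and 16.6% did not pass.

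Ndufa4 carries a complex I name but encodes a subunit now placed in complex IV. It had 83.1 to 95 CPM (median 86.6) in activated naive libraries and 43.6 to 56.5 CPM (median 51.6) in naive libraries (log2 0.78 ± 0.04, adjusted p = 2.37e-10). In TH1 effector libraries it had 32.6 to 41.4 CPM (median 35.2), below every naive library (log2 -0.48 ± 0.07, adjusted p = 1.33e-06). In reactivated TH1 libraries Ndufa4 had 41 to 53.8 CPM against 83.1 to 95 CPM in activated naive libraries, a log2 difference of -0.92 ± 0.06 (adjusted p = 1.61e-11). Its paralogue Ndufa4l2, known as a hypoxia-induced gene, had 3 counts over the 6 reactivated TH1 libraries, 5 over the TH1 effector, 11 over the activated naive and 2 over the naive libraries, and was not tested. Ndufs5, an accessory subunit, was listed at 0 in 23 of 24 libraries, with 2 counts in 1 activated naive library. Other genes, the closest the processed pseudogene BC002163, share 46.9% of its transcript, and the value of Ndufs5 in these files cannot be read as its expression.

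**Figure D3:**
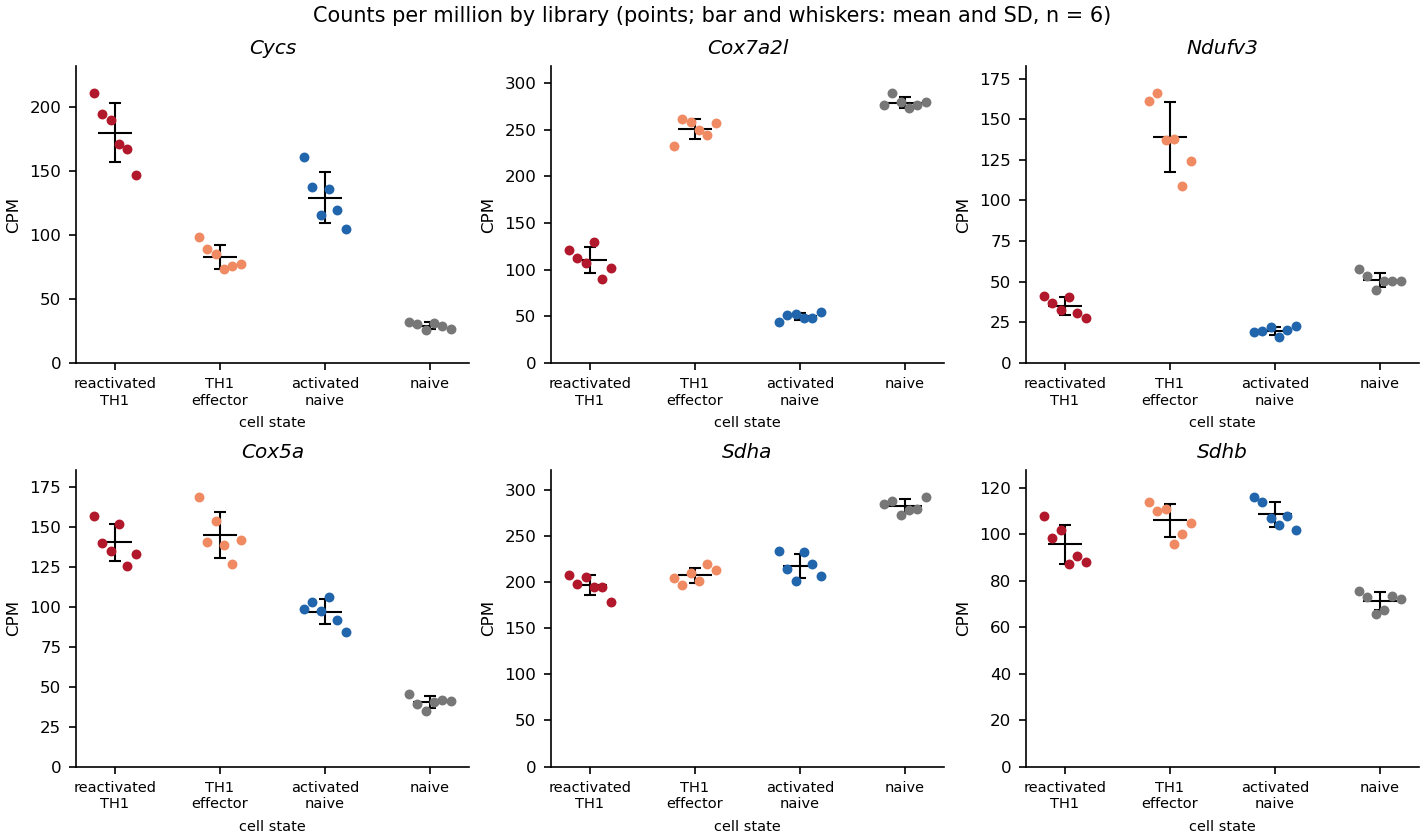
CPM of 6 genes in each of the 24 libraries, by cell state; points are libraries and the bar and whiskers the mean and SD of 6. Cycs lies lowest in naive cells, Cox7a2l drops to 44 to 54.3 CPM in activated naive cells, Ndufv3 is highest in TH1 effector cells, and Sdha and Sdhb lie on opposite sides of the naive level.

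Complex II, succinate dehydrogenase, works both in the chain and in the citric acid cycle and is encoded entirely in the nucleus. Its catalytic subunit moved against the other 3 in activated naive and TH1 effector cells, each compared with naive cells. Sdha, the flavoprotein that oxidises succinate, at chr13:74322254-74350280 on the minus strand, had 201.2 to 232.7 CPM (median 216.3) in activated naive libraries and 271.9 to 291.5 CPM (median 281.5) in naive libraries. The ranges did not overlap, and Sdha fell by 0.38 ± 0.04 on the log2 scale (adjusted p = 2.8e-08). It was also lower in TH1 effector libraries, at 197.0 to 218.9 CPM (log2 -0.44 ± 0.03 against naive cells, adjusted p = 1.36e-09). In reactivated TH1 libraries Sdha had 178.0 to 207.8 CPM, overlapping TH1 effector cells (log2 -0.08 ± 0.03, adjusted p = 0.12), although the fall passed with DESeq2 (log2 -0.14, adjusted p = 0.00303) and with library size alone (log2 -0.20, adjusted p = 7.34e-05).

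Sdhb, the iron-sulfur subunit, had 102.4 to 115.6 CPM (median 107.6) in activated naive libraries against 65.8 to 75.4 CPM (median 72.6) in naive libraries (log2 0.61 ± 0.04, adjusted p = 6.08e-12). In TH1 effector libraries it had 95.7 to 113.8 CPM, again above every naive library (log2 0.57 ± 0.04, adjusted p = 2.32e-11). On reactivation Sdhb fell slightly, by 0.15 ± 0.03 on the log2 scale, with overlapping ranges (adjusted p = 0.00568). The level of Sdha per kb of transcript was 0.812 ± 0.0448 times that of Sdhb in reactivated TH1 libraries, 0.774 ± 0.0664 times in TH1 effector libraries, 0.790 ± 0.0516 times in activated naive libraries and 1.56 ± 0.0624 times in naive libraries (SD, n = 6 each). Naive libraries thus lay apart from the other 3 states, at 1.48 to 1.63 against 0.704 to 0.881.

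The membrane anchors that bind heme and coenzyme Q differed in the cell state where their rise over naive cells was larger. Sdhd had 55.3 to 72.7 CPM in activated naive against 51.5 to 57.2 CPM in naive libraries, overlapping ranges with a log2 fold change of 0.23 ± 0.06 (adjusted p = 0.00024). This call was lost with library size alone (log2 0.07, adjusted p = 0.272). In TH1 effector libraries Sdhd had 106.2 to 125.1 CPM (median 113.3), a log2 fold change of 1.07 ± 0.03 against naive cells (adjusted p = 4.55e-16), and in reactivated TH1 libraries 100 to 123.5 CPM (log2 -0.03 ± 0.04 against TH1 effector cells, adjusted p = 0.588). Sdhc had 62.1 to 68.8 CPM in activated naive against 49.7 to 54.4 CPM in naive libraries (log2 0.33 ± 0.03, adjusted p = 9.27e-07), and 53 to 64.8 CPM in TH1 effector libraries (log2 0.19 ± 0.04 against naive cells, adjusted p = 0.000983). Neither Sdhc nor Sdhd passed the test on reactivation, but with library size alone both fell (log2 -0.20 and -0.15, adjusted p = 0.000403 and 0.0115), and Sdhc also fell with DESeq2 (log2 -0.14, adjusted p = 0.00819), with RLE size factors (adjusted p = 0.0158) and among genes of 10 CPM or more (adjusted p = 0.00724).

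Complex III, the cytochrome bc1 complex, had 7 of 8 genes higher and 1 lower in activated naive cells, and likewise 7 higher and 1 lower in TH1 effector cells, against naive cells. On reactivation it had 6 of 8 genes higher, 1 lower and a median log2 fold change of 0.23 in reactivated TH1 against TH1 effector cells. Over all genes, 41.3% rose and 40.5% fell in activated naive cells, and 44.6% and 40.3% in TH1 effector cells, against naive cells. On reactivation 39.9% of all genes rose and 39.8% fell. Uqcrq, a small subunit, changed most in the 2 comparisons with naive cells. It had 101.5 to 126.8 CPM (median 112.3) in activated naive libraries against 29.6 to 38.1 CPM (median 34) in naive libraries (log2 1.75 ± 0.07, adjusted p = 1.07e-16). In TH1 effector libraries Uqcrq had 64.8 to 98.9 CPM (log2 1.30 ± 0.08 against naive cells, adjusted p = 5.91e-14), and in reactivated TH1 libraries 93 to 130.6 CPM, overlapping TH1 effector cells (log2 0.44 ± 0.07, adjusted p = 1.18e-05). Uqcrfs1, the Rieske iron-sulfur protein, had 86.4 to 117.8 CPM in activated naive and 55.4 to 67.6 CPM in naive libraries (log2 0.82 ± 0.08, adjusted p = 1.65e-11).

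Among the core proteins of complex III, Uqcrc1 followed the stimulations. It had 195.8 to 213.6 CPM (median 207.6) in activated naive against 117.3 to 138.9 CPM (median 121.1) in naive libraries (log2 0.72 ± 0.05, adjusted p = 2.34e-13), and 149.6 to 174.6 CPM (median 163.9) in reactivated TH1 against 97.1 to 114.6 CPM (median 110.5) in TH1 effector libraries (log2 0.58 ± 0.04, adjusted p = 2.89e-11). TH1 effector libraries lay below naive ones for Uqcrc1 (log2 -0.20 ± 0.06, adjusted p = 0.00042), a call that was lost in the first run alone (adjusted p = 0.0549). Uqcrh, the hinge protein between cytochrome c1 and cytochrome c, was the exception in the other direction. It had 162.6 to 201.8 CPM in TH1 effector against 113.4 to 141.7 CPM in naive libraries (log2 0.50 ± 0.06, adjusted p = 2.62e-08), and 126.5 to 154.9 CPM in reactivated TH1 libraries, below every TH1 effector library (log2 -0.38 ± 0.06, adjusted p = 3.4e-06). Its fall in activated naive cells was small (log2 -0.16 ± 0.06, adjusted p = 0.0206) and was lost without naive replicate 2 (adjusted p = 0.0526) or without activated naive replicate 6 (adjusted p = 0.0575). Uqcrb, another small subunit, shares 68.6% of its transcript with all other genes combined, and is uncertain to that extent.

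Cytochrome c carries electrons from complex III to complex IV, and is also known as the protein whose release from mitochondria starts apoptosis. Cycs, at chr6:50562563-50566538 on the minus strand, had the largest rise of the 78 genes in activated naive cells. It had 105.0 to 161.3 CPM (median 127.9) in activated naive libraries against 25.7 to 32.1 CPM (median 29.4) in naive libraries (log2 2.15 ± 0.10, adjusted p = 2.25e-18). TH1 effector libraries had 73.3 to 98.3 CPM (median 81.3), above every naive library (log2 1.51 ± 0.07, adjusted p = 4.54e-15). Reactivated TH1 libraries had 146.7 to 210.9 CPM (median 180.8), above every TH1 effector library (log2 1.12 ± 0.05, adjusted p = 1.59e-12) and overlapping activated naive libraries (log2 0.47 ± 0.10, adjusted p = 5.05e-06). Other genes share 30.3% of the Cycs transcript.

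Complex IV, cytochrome c oxidase, had 13 of its 18 genes tested. Against naive cells 10 rose and 1 fell in activated naive cells, and 12 rose and 1 fell in TH1 effector cells, with a median log2 fold change of 1.07, the highest of the complexes I to V in that comparison. In reactivated TH1 against TH1 effector cells 2 rose, 6 fell and 5 did not pass, while all 13 were higher in reactivated TH1 than in activated naive cells. The shares that rose and fell on reactivation were 15.4% and 46.2%, beside 39.9% and 39.8% of all genes. Over all genes, 43.4% were higher in reactivated TH1 than in activated naive cells. Against naive cells, 41.3% of all genes rose in activated naive and 44.6% in TH1 effector cells. Cox5a, which joins the mitochondrially encoded core early in assembly, had 84.5 to 106.0 CPM (median 98.3) in activated naive libraries against 34.9 to 45.8 CPM (median 40.7) in naive libraries (log2 1.26 ± 0.07, adjusted p = 6.65e-15). In TH1 effector libraries it had 127.0 to 169.3 CPM (median 141.6; log2 1.84 ± 0.07 against naive cells, adjusted p = 4.21e-18), and in reactivated TH1 libraries 125.6 to 157.3 CPM (median 137.9), overlapping TH1 effector cells (log2 -0.05 ± 0.07, adjusted p = 0.541). A non-coding RNA on the other strand, Gm26631, overlaps 269 bases of the Cox5a exons, and 42% of the Cox5a transcript is found in other genes.

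The other subunits that most tissues use followed Cox5a with smaller changes. In TH1 effector against naive cells, Cox4i1, Cox5b, Cox6a1, Cox6b1, Cox6c, Cox7a2, Cox7b, Cox7c and Cox8a all rose, with log2 fold changes of 0.73 to 1.38 and no overlap of ranges. In that comparison 84.9% of all genes differed, and how many of them had ranges apart was not counted. Cox8a had the largest rise among these subunits, with 122.6 to 175.0 CPM in TH1 effector and 50.6 to 68.1 CPM in naive libraries (log2 1.38 ± 0.09, adjusted p = 9.03e-14). On reactivation these genes moved little. Cox4i1 (log2 -0.11 ± 0.04, adjusted p = 0.0423), Cox6a1 (-0.19 ± 0.08, adjusted p = 0.0465) and Cox8a (-0.31 ± 0.06, adjusted p = 0.00169) fell, and Cox7a2 (0.15 ± 0.04, adjusted p = 0.0464) and Cox7c (0.11 ± 0.02, adjusted p = 0.0151) rose. The calls of Cox4i1 and Cox6a1 were lost without reactivated TH1 replicate 6 (adjusted p = 0.118 and 0.114), that of Cox7a2 without TH1 effector replicate 4 (adjusted p = 0.114), and those of Cox7a2 and Cox7c with DESeq2 (adjusted p = 0.247 and 0.222), while Cox7c turned to -0.01 with library size alone. In activated naive cells Cox7b, of the outer rim of the complex, rose most after Cox5a, with 101.1 to 116.3 CPM against 47.6 to 61.7 CPM in naive libraries (log2 0.99 ± 0.05, adjusted p = 2.44e-15). The rise of Cox8a in activated naive cells (log2 0.19 ± 0.12, adjusted p = 0.0453) was lost without activated naive replicate 4 (adjusted p = 0.183), without naive replicate 3 (adjusted p = 0.152) and with DESeq2 (adjusted p = 0.0727).

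Cox7a2l was the complex IV gene that fell. It encodes a relative of Cox7a2, known as a factor that joins complexes III and IV into supercomplexes, and C57BL/6 mice are known to carry a shortened form of the protein, which counts per gene do not resolve. Cox7a2l lies at chr17:83501918-83517330 on the minus strand. It had 44 to 54.3 CPM (median 50) in activated naive libraries against 272.7 to 289.4 CPM (median 278.2) in naive libraries (log2 -2.49 ± 0.05, adjusted p = 2.52e-21). In reactivated TH1 libraries it had 89.7 to 130.2 CPM (median 109.3) against 232.2 to 260.9 CPM (median 253.6) in TH1 effector libraries (log2 -1.18 ± 0.09, adjusted p = 1.21e-14). Both falls came without overlap of ranges. TH1 effector cells lay slightly below naive cells (log2 -0.16 ± 0.03, adjusted p = 0.028), a call that was lost without TH1 effector replicate 1 (adjusted p = 0.0721) and with DESeq2 (adjusted p = 0.0751). Per kb of transcript, Cox7a2l stood at 0.686 ± 0.0592 times the level of Cox7a2 in reactivated TH1 libraries, 1.73 ± 0.0779 times in TH1 effector libraries, 0.462 ± 0.0837 times in activated naive libraries and 4.09 ± 0.436 times in naive libraries (SD, n = 6 each).

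Isoforms of complex IV that are known from particular tissues were rare. Cox6b2, the testis isoform of Cox6b1, had 3.09 to 5.96 CPM (median 4.03) in TH1 effector libraries against 0.188 to 0.332 CPM (median 0.226) in naive libraries (log2 4.06 ± 0.12, adjusted p = 2.2e-11). In reactivated TH1 libraries Cox6b2 had 0.484 to 1.93 CPM, below every TH1 effector library (log2 -1.90 ± 0.11, adjusted p = 6.26e-07), with the 3 libraries of the first run at 0.484 to 0.695 CPM and those of the second at 1.64 to 1.93 CPM. These values rest on 190 counts over the 6 reactivated TH1 libraries, 687 over the TH1 effector, 28 over the activated naive and 35 over the naive libraries. Cox7a1, the isoform of heart and skeletal muscle, had 0.365 to 0.879 CPM in TH1 effector and 0.047 to 0.184 CPM in naive libraries (log2 2.21 ± 0.17, adjusted p = 9.67e-06). Its fall on reactivation (log2 -0.83 ± 0.21, adjusted p = 0.0221) was lost without reactivated TH1 replicate 3 (adjusted p = 0.0692). Cox4i2, known from lung and from hypoxia, was not tested; it ranged over 0.153 to 0.323 CPM in reactivated TH1, 0.177 to 2.49 CPM in TH1 effector, 0.0922 to 0.14 CPM in activated naive and 0 to 0.048 CPM in naive libraries. Cox6a2, Cox7b2, Cox8b and Cox8c had at most 9 counts over any state and were not tested.

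Complex V, ATP synthase, had 13 of 17 genes higher and 3 lower in activated naive against naive cells. These are 76.5% and 17.6%, beside 41.3% and 40.5% of all genes. In TH1 effector against naive cells 15 were higher and 2 lower, 88.2% and 11.8%, beside 44.6% and 40.3% of all genes. In reactivated TH1 against TH1 effector cells 5 rose, 7 fell and 5 did not pass; the 29.4% that rose and 41.2% that fell stand beside 39.9% and 39.8% of all genes. Of the genes of the catalytic head and central stalk, Atp5b, the catalytic beta subunit, had the highest level per kb of transcript of all complex V genes in each state. It reached 777 CPM per kb in reactivated TH1, 560 in TH1 effector, 641 in activated naive and 290 in naive cells on average. Atp5b had 1120 to 1294 CPM (median 1230) in activated naive against 526.4 to 584.0 CPM (median 550.8) in naive libraries (log2 1.14 ± 0.04, adjusted p = 1.35e-18), and 1386 to 1601 CPM (median 1486) in reactivated TH1 against 994.6 to 1134 CPM (median 1071) in TH1 effector libraries (log2 0.47 ± 0.03, adjusted p = 1.79e-10). Its partner Atp5a1, the alpha subunit, rose less in activated naive cells (log2 0.53 ± 0.02, adjusted p = 9.66e-12). Atp5c1, the rotating gamma subunit, fell there, with a median of 137.2 CPM in activated naive and 160.4 CPM in naive libraries, and the highest activated naive library just above the lowest naive one (log2 -0.21 ± 0.04, adjusted p = 7.08e-05), and fell again on reactivation (log2 -0.30 ± 0.03, adjusted p = 5.83e-07). Atp5d, the delta subunit of the central stalk, had 178.2 to 281.0 CPM in TH1 effector against 87.9 to 128.1 CPM in naive libraries (log2 1.15 ± 0.09, adjusted p = 1.62e-13).

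All 4 genes of the peripheral stalk, which holds the head still, rose in TH1 effector against naive cells, beside 44.6% of all genes. In activated naive cells 3 of its 4 genes rose, beside 41.3% of all genes. Atp5f1, its b subunit, had 270.6 to 295.8 CPM in TH1 effector and 122.2 to 143.1 CPM in naive libraries (log2 1.12 ± 0.02, adjusted p = 1.23e-17). On reactivation Atp5f1 fell, to 220.4 to 250.3 CPM (log2 -0.28 ± 0.03 against TH1 effector cells, adjusted p = 3.98e-06), as did Atp5h (log2 -0.26 ± 0.04, adjusted p = 4.59e-05), and none of the 4 rose. Atp5f1 and Atp5h share 64.6% and 71.1% of their transcripts with all other genes combined, and Atp5l, a small membrane subunit, 72.2%. Genes on the other strand, Wdr77 and Gm42890, overlap 540 bases of the Atp5f1 exons. The 3 small membrane subunits Atp5j2, Atp5k and Atp5l rose in both activated naive and TH1 effector cells against naive cells, with log2 fold changes of 0.19 to 0.81. Atp5s and Atp5sl carry the name of complex V but are not structural subunits, and Atp5sl is known as an assembly factor of complex I. Atp5sl had 20.5 to 28 CPM in reactivated TH1, 32.8 to 42 CPM in TH1 effector, 34.3 to 56.8 CPM in activated naive and 49.5 to 63.5 CPM in naive libraries. Every reactivated TH1 library lay below every TH1 effector one (log2 -0.55 ± 0.10, adjusted p = 2.44e-05).

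The c ring, through which protons pass, is encoded by Atp5g1, Atp5g2 and Atp5g3, whose products are processed to the same mature subunit. The 3 genes differed in how far they rose in each comparison. Atp5g1 had 131.9 to 153.4 CPM (median 141.3) in activated naive against 31.2 to 39 CPM (median 35.9) in naive libraries (log2 1.99 ± 0.05, adjusted p = 1.41e-21), and 107.3 to 114.5 CPM (median 111.9) in reactivated TH1 against 48.7 to 58 CPM (median 51.9) in TH1 effector libraries (log2 1.09 ± 0.04, adjusted p = 6.21e-16). Atp5g3 had 201.4 to 223.6 CPM (median 211.9) in activated naive against 91.5 to 104.8 CPM (median 98.1) in naive libraries (log2 1.11 ± 0.03, adjusted p = 1.54e-18), and 294.5 to 322.6 CPM (median 313.8) in reactivated TH1 against 168.9 to 184.8 CPM (median 179.6) in TH1 effector libraries (log2 0.81 ± 0.03, adjusted p = 2.63e-15). Both genes thus rose after either stimulation, with no overlap. Atp5g2 had 52.4 to 60.6 CPM (median 57.7) in activated naive against 42.7 to 51.7 CPM (median 49.4) in naive libraries (log2 0.25 ± 0.07, adjusted p = 0.000435). This call was lost with library size alone (log2 0.09, adjusted p = 0.189). Atp5g2 had 74.7 to 81.5 CPM in TH1 effector libraries (log2 0.72 ± 0.06 against naive cells, adjusted p = 2.55e-11) and 69.2 to 83.8 CPM in reactivated TH1 libraries (log2 -0.06 ± 0.04 against TH1 effector cells, adjusted p = 0.386). On reactivation a fall of Atp5g2 was called with library size alone (log2 -0.18, adjusted p = 0.00788). It was also called among genes of 10 CPM or more (log2 -0.13, adjusted p = 0.0482).

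As a share of the summed CPM per kb of the 3 genes, Atp5g1 made up 7.25% ± 0.238 in reactivated TH1, 5.26% ± 0.219 in TH1 effector, 12.5% ± 0.414 in activated naive and 6.24% ± 0.318 in naive libraries (SD, n = 6 each). Atp5g2 made up 18% ± 0.990, 28.8% ± 0.944, 18.2% ± 0.610 and 30.2% ± 1.83 in the same order of states. The larger part was Atp5g3, at 74.8% ± 1.04 in reactivated TH1, 65.9% ± 1.02 in TH1 effector, 69.2% ± 0.589 in activated naive and 63.5% ± 1.97 in naive libraries. The size of the shares depends on the transcript length assumed, since the 2 transcripts of Atp5g1 measure 0.596 and 4.71 kb. With the shortest transcript of each gene, Atp5g1 made up 25.7% ± 0.678 in reactivated TH1, 19.8% ± 0.692 in TH1 effector, 38.9% ± 0.899 in activated naive and 22.8% ± 0.955 in naive libraries. Atp5g3 then made up 60% ± 1.03, 55.9% ± 1.07, 48.5% ± 0.719 and 52.4% ± 1.89 in the same order of states. Its share was thus lower in activated naive than in naive libraries, while with mean lengths it was higher.

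**Figure D4:**
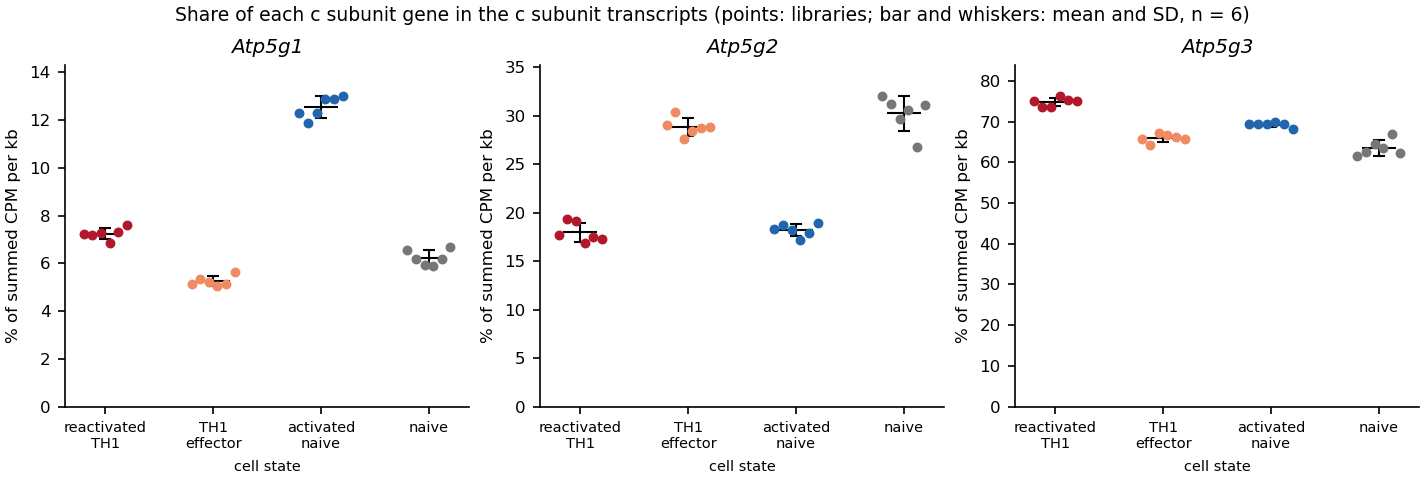
Share of Atp5g1, Atp5g2 and Atp5g3 in the summed CPM per kb of the 3 c subunit genes, in percent, for each of the 24 libraries by cell state, with mean and SD of 6. The Atp5g1 share is highest in activated naive libraries, and the Atp5g2 share is lower in both stimulated states than in TH1 effector and naive libraries.

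Promoters of these 3 genes and of Cycs are shown because Cycs and Atp5g1 had the largest rises in activated naive cells and because the c ring genes make the same mature protein from separate promoters. Each runs from 250 bases before to 50 bases after the RefSeq start in GRCm38.p6, on the minus strand, for Atp5g1 at chr11:96075582-96075881, Atp5g2 at chr15:102670998-102671297, Atp5g3 at chr2:73911277-73911576 and Cycs at chr6:50566520-50566819. Capitals mark matches, on either strand, to 3 motifs: for NRF1 the letters GCGCA and GCGC with any 1 base between them, CCGGAAGT for GABP and CACGTG for the E-box bound by MYC. The Atp5g1 window holds an E-box, the Atp5g2 window an NRF1 match, the Atp5g3 window an E-box and an NRF1 match, and the Cycs window none of these letters.
Atp5g1: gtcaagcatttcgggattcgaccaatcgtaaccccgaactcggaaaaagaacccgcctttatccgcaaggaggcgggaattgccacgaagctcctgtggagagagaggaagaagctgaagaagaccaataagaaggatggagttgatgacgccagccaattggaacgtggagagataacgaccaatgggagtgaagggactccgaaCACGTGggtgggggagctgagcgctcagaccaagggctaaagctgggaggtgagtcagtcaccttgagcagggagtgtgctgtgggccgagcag
Atp5g2: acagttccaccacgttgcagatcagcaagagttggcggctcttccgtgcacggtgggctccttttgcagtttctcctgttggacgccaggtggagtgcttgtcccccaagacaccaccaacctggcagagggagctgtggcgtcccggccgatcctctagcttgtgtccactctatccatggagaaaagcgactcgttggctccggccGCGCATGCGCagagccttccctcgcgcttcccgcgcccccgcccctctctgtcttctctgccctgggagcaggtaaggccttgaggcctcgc
Atp5g3: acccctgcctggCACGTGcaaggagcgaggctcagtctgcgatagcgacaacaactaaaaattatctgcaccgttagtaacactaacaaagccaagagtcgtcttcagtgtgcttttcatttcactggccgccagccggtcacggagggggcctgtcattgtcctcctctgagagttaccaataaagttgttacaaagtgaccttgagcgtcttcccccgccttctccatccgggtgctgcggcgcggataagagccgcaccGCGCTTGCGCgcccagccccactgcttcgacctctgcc
Cycs: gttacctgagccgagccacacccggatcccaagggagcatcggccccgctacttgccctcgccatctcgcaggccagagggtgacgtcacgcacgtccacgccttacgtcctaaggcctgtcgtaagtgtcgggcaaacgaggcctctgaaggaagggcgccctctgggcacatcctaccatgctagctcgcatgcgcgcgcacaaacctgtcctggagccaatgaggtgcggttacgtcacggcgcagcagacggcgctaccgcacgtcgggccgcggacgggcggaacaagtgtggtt
The RefSeq promoter table held 67 of the 85 genes. The NRF1 letters occurred in 17 of these 67 promoters, or 25.4%, in 5.19% of all 27025 promoters of the same length and in 11.7% of the 9328 promoters of genes tested here. By complex, matches were found in 7 of 32 promoters for complex I, 2 of 3 for complex II, 1 of 5 for complex III, 1 of 13 for complex IV and 6 of 13 for complex V. The GABP letters and the E-box each occurred in 7.46% of the 67, beside 9.29% and 12% of the promoters of genes tested. No matches of different motifs overlapped in the 67. Over the 16 tested genes with an NRF1 match and the 48 without one, the median log2 fold changes were 0.48 and 0.47 in activated naive against naive cells, 0.50 and 0.75 in TH1 effector against naive cells, and -0.03 and 0.02 in reactivated TH1 against TH1 effector cells. The median difference between the responses was -0.29 with a match and -0.49 without. A match is a description of the sequence and not a binding site.

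The response of TH1 cells to stimulation, reactivated TH1 against TH1 effector, was set against the response of naive cells, activated naive against naive. The difference between the 2 log2 fold changes was below 0 for 55 of the 78 genes at an adjusted p under 0.05, beside 33.7% of all genes tested, and above 0 for 4, beside 34.3%, with 68.0% of all genes differing either way; the median difference was -0.43, beside -0.00 over all genes. By complex the lower counts were 22 of 35 for complex I, 3 of 4 for complex II, 6 of 8 for complex III, 11 of 13 for complex IV and 12 of 17 for complex V. Cox5a and Uqcrq each had a difference of -1.30 ± 0.10 (adjusted p = 1.19e-11 and 1.34e-10). Ndufa12 differed by -1.13 ± 0.06 (adjusted p = 2.19e-11), Cycs by -1.03 ± 0.12 (adjusted p = 1.12e-08) and Atp5g1 by -0.90 ± 0.07 (adjusted p = 5.36e-11). The 4 genes with a difference above 0 were Cox7a2l at 1.30 ± 0.10 (adjusted p = 4.15e-12), Ndufs7 at 0.47 ± 0.08 (adjusted p = 9.11e-05), Sdha at 0.30 ± 0.05 (adjusted p = 0.000219) and Ndufb10 at 0.29 ± 0.07 (adjusted p = 0.00253). For Cox7a2l and Ndufb10 this means a smaller fall in TH1 cells than in naive cells. The difference for Sdha was not called in the second run alone (log2 0.21, adjusted p = 0.0915). Since the levels that the responses started from differed between TH1 effector and naive cells, the difference does not say which cells reached the higher level: Cycs was higher in reactivated TH1 than in activated naive cells, and Atp5g1 was lower there (log2 -0.36 ± 0.02, adjusted p = 5.61e-07).

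**Figure D5:**
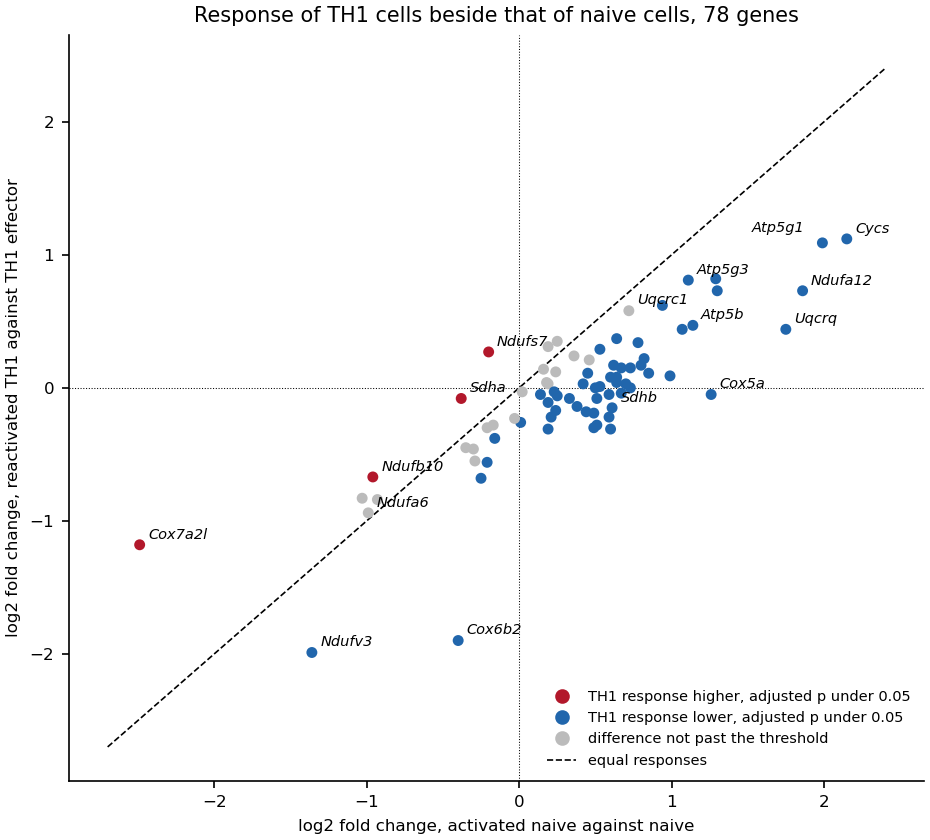
Response of TH1 cells (vertical axis, log2 fold change of reactivated TH1 against TH1 effector) beside that of naive cells (horizontal axis, log2 fold change of activated naive against naive) for the 78 tested genes. Points below the dashed line of equal responses have a lower value in TH1 cells; 55 blue points pass the test in that direction, and Cox7a2l, Ndufs7, Sdha and Ndufb10 in red pass in the other.

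Genes that serve the chain without being part of it were read from the same fit. Over all genes tested, 41.3% were higher and 40.5% lower in activated naive against naive cells, 44.6% and 40.3% in TH1 effector against naive cells, and 39.9% and 39.8% in reactivated TH1 against TH1 effector cells, and a list near these shares shows nothing of its own. Assembly factors of complex I, 17 tested, had 10 higher and 6 lower in activated naive against naive cells, 4 higher and 10 lower in TH1 effector against naive cells, and 12 higher and 4 lower in reactivated TH1 against TH1 effector cells. Ndufaf4, an early assembly factor, averaged 110 CPM in activated naive and 20.8 CPM in naive cells (log2 2.41 ± 0.09, adjusted p = 4.67e-20), and 65.5 CPM in reactivated TH1 against 18.4 CPM in TH1 effector cells (log2 1.83 ± 0.05, adjusted p = 3.54e-17). For complex IV, 13 of 23 assembly factors were higher and 7 lower in activated naive cells, and 11 higher and 7 lower in TH1 effector cells, against naive cells; the TH1 effector counts are 47.8% and 30.4% of the list. Sco1, a copper chaperone, averaged 100 CPM in TH1 effector and 15.9 CPM in naive cells (log2 2.64 ± 0.06, adjusted p = 2.82e-19) and fell to 39.8 CPM in reactivated TH1 cells (log2 -1.32 ± 0.05 against TH1 effector cells, adjusted p = 2.01e-13). Surf1, another complex IV assembly factor, averaged 13.6 CPM in activated naive and 32 CPM in naive cells (log2 -1.23 ± 0.08, adjusted p = 5.37e-14).

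Of the 6 complex III assembly factors, 3 were higher and 3 lower in activated naive cells, near the shares of all genes. Uqcc2, listed as Mnf1, averaged 52 CPM in activated naive and 13.1 CPM in naive cells (log2 1.99 ± 0.05, adjusted p = 6.09e-19), and Uqcc3, listed as AI462493, averaged 9.93 CPM in activated naive and 29.8 CPM in naive cells (log2 -1.58 ± 0.10, adjusted p = 2.18e-14). Of 13 genes of coenzyme Q synthesis and handling, 6 were higher and 4 lower in activated naive against naive cells, 46.2% and 30.8%, and 9 higher and 3 lower, 69.2% and 23.1%, in reactivated TH1 against TH1 effector cells, with Coq10b averaging 29 CPM in reactivated TH1 and 7.72 CPM in TH1 effector cells (log2 1.94 ± 0.09, adjusted p = 2.92e-14). Among 8 genes for other routes of electrons into coenzyme Q, 4 were higher and 3 lower in activated naive cells, 50% and 37.5%. Gpd2, of the glycerol phosphate shuttle, averaged 105 CPM in activated naive and 38.3 CPM in naive cells (log2 1.46 ± 0.06, adjusted p = 1.27e-17), while Sqor, listed as Sqrdl, which oxidises sulfide, averaged 0.946 CPM against 16 CPM (log2 -4.10 ± 0.13, adjusted p = 8.05e-19). Regulators of mitochondrial transcription and biogenesis, 24 tested, had 15 higher and 6 lower in activated naive cells, 62.5% and 25%, and 5 higher and 15 lower in TH1 effector cells, 20.8% and 62.5%, against naive cells. On reactivation 18 were higher and 1 lower, 75% and 4.17%. Myc, a transcription factor of cell growth, rose most among them, averaging 1033 CPM in activated naive and 65.5 CPM in naive cells (log2 3.98 ± 0.13, adjusted p = 2.45e-20), and it was also higher in TH1 effector than in naive cells (log2 2.83 ± 0.11, adjusted p = 1.58e-17). Pprc1, a coactivator of the NRF1 pathway, averaged 471 CPM in activated naive and 97.6 CPM in naive cells (log2 2.27 ± 0.06, adjusted p = 1.32e-20), and Ppargc1b, its relative, averaged 4.11 CPM against 17.2 CPM (log2 -2.07 ± 0.20, adjusted p = 9.89e-13). In TH1 effector cells Pprc1 averaged 96.8 CPM, close to the 97.6 CPM of naive cells (log2 -0.01 ± 0.07, adjusted p = 0.874), and on reactivation it had the largest rise of the list (log2 1.38 ± 0.06, adjusted p = 7.76e-16).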

How the data were processed

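RNA sequencing counts were analysed in 24 libraries. Per the labels and the deposited files, each file holds whole-number read counts per gene symbol, not normalised, ending in 5 summary lines of unassigned reads. These lines were left out before scaling and testing, and they held 23.5% of the counts in reactivated TH1, 25.9% in TH1 effector, 30.2% in activated naive and 29.9% in naive libraries. STAR, HTSeq, DESeq2 and the build mm10 are named in the submitters' processing notes; what each did, its version, the gene annotation and the strand option were not given in those sources. Reads of genes that overlap on opposite strands may thus be merged, which concerns 25 of the 85 genes, and 21 share 20% or more of their transcript with other genes.

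The respiratory chain genes and the other lists were chosen with earlier results of these data known. Genes were filtered with filterByExpr and normalised by TMM; edgeR then fitted all libraries in 1 quasi-likelihood model of group and sequencing run, in version 4.0.16 in R 4.3.3. Flow cell names in the files assigned replicates 1 to 3 to a first run and replicates 4 to 6 to a second, with mean depths of 30790064 and 22474515 counts. The model was tested on simulated data. Adjusted p-values are from edgeR's quasi-likelihood test with Benjamini-Hochberg adjustment and a threshold of 0.05, unless DESeq2 1.42.0 is named. In the reported fit the adjustment was over 12584 genes. Values quoted for another setting, a single run or a library left out come from that fit, whose number of genes may differ. Each SE belongs to a difference in mean log2 CPM and uses the residual spread after group and run. Overlap of ranges was read for the listed genes only, and its share over all genes was not counted. Copies were sought among GENCODE M21 transcripts at 97% identity or more. Transcript lengths are means of GENCODE M21 protein-coding transcripts with a curated RefSeq partner.

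Members named with values were drawn from the largest rises and falls in each complex and comparison, among called genes with at least 10 CPM. Uqcr10, Uqcr11 and Uqcrc2 were among these and are not described with values. All Sdh genes, Cycs and the isoform sets were also named. From other lists, some of the genes with the largest rise or fall in a comparison were named. Ndufs8, Ndufc2, Ndufb10, Ndufa3, Ndufa13, Ndufb3, Ndufb11, Uqcrb, Cox5b, Cox6c, Atp5a1, Atp5h, Atp5j2, Atp5k and Atp5s were added after their values were seen. The values of 1 complex I gene are not reported here, though it is in all counts. Alternatives were other scalings and filters, DESeq2, a minimum fold, no run term, each run alone, the replicate block, and each library left out in turn.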

Additional observations from a re-analysis of the deposited data

Results flagged for a closer look

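Among 41 named genes in 4 groups, 5 combinations of gene and group held 1 library far from the other 5, and chance flags about 1 in 20 combinations. These were TH1 effector replicate 6 for Atp5g1 at 58 CPM, naive replicate 1 for Cox6b2 at 0.332 CPM and for Uqcrfs1 at 67.6 CPM, naive replicate 6 for Cox7a1 at 0.047 CPM, and activated naive replicate 5 for Ndufa4 at 95 CPM. For Cox6b2 and Cox7a1 these levels rest on few counts.

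The TH1 response and the naive response differed, by a test of the difference itself, with 4 genes higher and 55 lower in TH1 cells of the 78 tested. The complex II genes fell on both sides, with log2 differences of 0.30 for Sdha, -0.76 for Sdhb, -0.40 for Sdhc and -0.26 for Sdhd. The others were -1.30 for Cox5a, 1.30 for Cox7a2l, -1.03 for Cycs, 0.47 for Ndufs7 and -1.5 for Cox6b2. The difference for Cox6b2 was not called without activated naive replicate 3 (log2 -0.84, adjusted p = 0.165) or in the second run alone (log2 -0.88, adjusted p = 0.262). That for Sdha was also not called in the second run alone (log2 0.21, adjusted p = 0.0915).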

How the results depend on the processing

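Over 12 alternatives and 24 libraries left out in turn, the counts of genes kept within 1.5 times of the reported ones except as follows. With a minimum fold of 1.5, 21 genes were higher and 5 lower in activated naive against naive cells, 38 and 0 in TH1 effector against naive cells, 6 and 6 in reactivated TH1 against TH1 effector cells, 6 and 2 in reactivated TH1 against activated naive cells, and 1 and 14 in the difference of responses. With library size alone 17 were higher on reactivation. In the first run alone 4 were lower in TH1 effector cells; in the second, 17 were lower on reactivation and 2 higher in the difference of responses. With library size alone Cox6b1 and Cox7c turned to -0.12 and -0.01 on reactivation. With 1 library left out, higher and lower counts ranged over 57 to 58 and 14 to 16 for activated naive cells, 67 to 67 and 6 to 8 for TH1 effector cells, 22 to 28 and 24 to 28 for reactivation, 49 to 52 and 12 to 14 for reactivated TH1 against activated naive cells, and 4 to 4 and 54 to 60 for the difference of responses. In such fits 11 named values lost a call and 2 gained one at least once. Replicate numbers are shared between groups, and the labels do not say what they mark. Of 36 same-numbered pairs, 35 correlated over 0.1, up to 0.419, and 1, of activated naive with naive, at 0.079; in 71 of 72 comparisons of a library with another group the best match had its own number, a hint from the data and not the design. With the replicate block the counts were 58 and 15, 67 and 7, 26 and 28, 52 and 13, and 4 and 56. Counts by complex left the range of 1.5 times more often. With a minimum fold of 1.5, 41 of them did, in the first run alone 8 and in the second 10. With library size alone 4 did, among genes of 10 CPM or more 4, with DESeq2 3 and with RLE size factors 3. The cause of these shifts was not tested. Depth limits the rare isoforms, Cox6b2, Cox7a1 and Cox4i2, which had few counts.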

Other observations

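Genes tied to ATP synthase but outside the symbol rule were looked at after the values of its members were seen. Atpif1, the inhibitor that stops ATP synthase from running backwards, averaged 46.4 CPM in reactivated TH1, 71.8 CPM in TH1 effector, 8.76 CPM in activated naive and 8.75 CPM in naive cells. It rose in TH1 effector against naive cells (log2 3.03 ± 0.12, adjusted p = 1.12e-18), fell in reactivated TH1 against TH1 effector cells (log2 -0.62 ± 0.08, adjusted p = 3.21e-06) and was not called in activated naive against naive cells (log2 -0.00, adjusted p = 1). Usmg5, a small subunit of the ATP synthase dimer, rose in activated naive cells (log2 1.60) and in TH1 effector cells (log2 1.33) against naive cells. Ndufab1, the acyl carrier protein that is also part of complex I, rose by 1.23 and 1.28 on the log2 scale in the same 2 comparisons.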
